A study of Saccharomyces cerevisiae with 6 samples.

Results

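The genes described here encode nucleolar ribosome assembly factors of budding yeast (Saccharomyces cerevisiae), the proteins that cut, fold and modify the ribosomal RNA precursor and build it into the small and large ribosomal subunits. They were chosen by name, as the genes whose array symbol is UTP, NOP, RRP, NOC, ENP, RIX, RLP or NSA followed by a number. This gave 64 of the 5449 measured genes, 18 of them UTP genes and 46 others. Each has 1 probe set on the array, and all were above background on all 6 arrays. The naming pattern mixes complexes. It takes in 7 subunits of the RNA exosome, which has other substrates too, and it leaves out partners with other names, such as PWP2 and ERB1.

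Ribosome assembly starts in the nucleolus on the nascent ribosomal RNA. UTP proteins join the U3 small nucleolar RNA and its proteins in the small-subunit processome, which makes the early cuts that release the small-subunit RNA. Most NOP, RRP, NOC and RIX proteins act on the precursor of the large subunit, or guide the chemical modification of the RNA. In yeast these genes are known as a co-regulated group whose transcripts follow growth rate and nutrient supply.

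The gcn4-delta group held 3 arrays of an S288C MATa strain without GCN4, grown with 0.1 mM aminotriazole (3AT). The wild type group held 3 arrays of S288C MATa cells grown with 10 mM 3AT. GCN4 encodes the activator of amino acid biosynthesis genes, and 3AT inhibits the histidine enzyme encoded by HIS3. All cultures grew aerobically on YNB medium, at 30 °C and pH 5, in chemostats. These are continuous cultures in which the inflow sets the growth rate, here 0.10 per hour for both strains with glucose limiting, per the series' design text. The strain and the 3AT concentration differ together and cannot be told apart. The labels do not say whether replicates came from separate chemostats, so the spread behind the p-values is that of these samples and may be technical.

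Values are array intensities on a linear scale after RMA normalization, and changes are differences of mean log2 intensity, gcn4-delta minus wild type. GCN4 read 14.5, 213 and 11.4 on the gcn4-delta arrays, against 7312, 7309 and 7248 on the wild-type arrays, and the background level was 17.9 to 25.2. HIS3 read 762, 798 and 927 in gcn4-delta, against 4255, 3760 and 3917 in the wild type. All 7 MATa marker genes were above background on every array and 0 of them passed the test, against 11.3% of all genes. Their summed intensities were 11634.5 to 12353 in gcn4-delta and 8272 to 12304 in the wild type. The 4 MATα markers were also above background, with much lower summed intensities of 694 to 727 in gcn4-delta and 604 to 934 in the wild type. Among 6 sporulation markers 1 passed, against 11.3% of all genes. It was SPR3, at a log2 change of 2.10 (adjusted p = 0.000273, limma). The medians of the 6 arrays over yeast genes lay between 665 and 712.

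The measured log2 changes of the assembly factors between the groups were small. With limma, 0 of 64 assembly genes passed an adjusted p of 0.05 in either direction, while 11.3% of all genes tested did (618 of 5449). At an unadjusted p under 0.05 there were 7 assembly genes (10.9%), against 28.6% of all genes. The smallest adjusted p was 0.110, that of NOP13. The median log2 change was -0.031 over the 64 genes and 0.035 over all genes. Their log2 changes ran from -0.49 to 0.35, against -7.80 to 3.33 over all genes. The SD across genes was 0.20, against 0.48 over all genes, a value that includes those extremes. The quartiles were -0.24 and 0.11, against -0.16 and 0.21 over all genes, so the middle of the 2 distributions was about equally wide. The log2 change exceeded 0.5 in size for 0 of the 64 genes, and for 13.5% of all genes.

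The intervals bound the size of the difference between these groups of samples only. The spread behind them may be technical, as stated above. The 95% interval of the log2 change, unadjusted for the number of genes, lay within a 2-fold change either way for all 64 assembly genes, and for 88.1% of all genes. It lay within a 1.5-fold change for 45 of the 64. Standard errors ranged from 0.086 to 0.21 on the log2 scale, with a median of 0.136, against 0.114 over all genes. On simulated data for 5498 probe sets, the test recovered 40.3% of log2 changes of 0.5 in size and 94% of those of 1. Changed probe sets numbered 67, 67 and 66 at sizes of 0.5, 1 and 2, and 160 calls were made. The simulation was not limited to the assembly genes, whose median standard error was larger. Its shares therefore do not give the recovery to be expected among the assembly genes. The lack of calls does not show that the levels were equal.

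**Figure D1:**
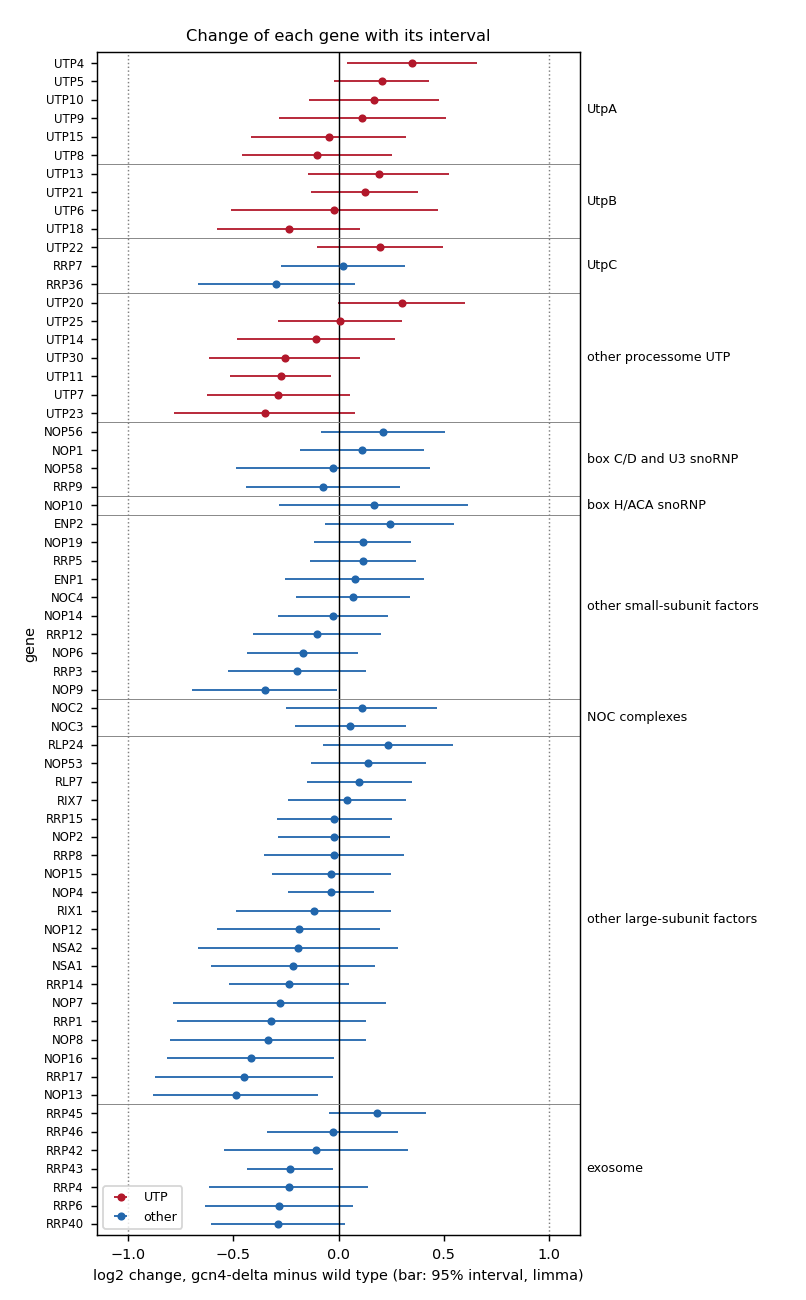
Log2 change of the 64 assembly genes, gcn4-delta minus wild type, as points with 95% limma intervals, grouped down the page by role, with UTP genes in red and the others in blue. All intervals lie within the dotted lines at -1 and 1, and the points run from NOP13 at -0.49 to UTP4 at 0.35.

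The groups did not overlap for 8 assembly genes (12.5%), against 35.7% of all genes. Of these, 3 were higher in gcn4-delta, namely UTP4, UTP5 and RRP45, where the share of all genes was 21.1%. The other 5 were lower, namely UTP7, UTP11, NOP9, NOP13 and RRP43, where the share of all genes was 14.6%. Both shares among the assembly genes, 4.69% higher and 7.81% lower, were thus below those of the genome as a whole.

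The UtpA complex is the first part of the processome to bind the nascent RNA, and its members are also known in transcription of ribosomal DNA. Of its 6 measured genes 0 passed the test, against 11.3% of all genes, and 4 had a positive change, against 55.7% of all genes. A list this short, like those of the other complexes below, can hold 0 calls at a share of 11.3%. UTP4, a WD-repeat subunit, read 808, 679 and 744 in gcn4-delta, against 669, 587 and 501 in the wild type. Its gcn4-delta values were all higher, but the lowest of them lay just above the highest wild-type one, and its log2 change was 0.35 ± 0.13 (SE, adjusted p = 0.134, limma). UTP8, a subunit also known in tRNA export, read 378, 429.7 and 537 in gcn4-delta, against 525, 482 and 427 in the wild type, so that the groups overlapped (log2 change -0.10, adjusted p = 0.685). UTP5 was at 0.20, UTP10 at 0.17, UTP9 at 0.11 and UTP15 at -0.048.

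UtpB, a second building block of the processome that binds near the U3 RNA, has 4 genes among these. UTP13 read 819.8, 772 and 785 in gcn4-delta, against 818, 723 and 565 in the wild type, a log2 change of 0.19 (adjusted p = 0.417). Only wild type replicate 3 stood clearly below the rest. UTP18, whose product is known to recruit the exosome-associated helicase, read 499.9, 482 and 568 in gcn4-delta, against 741, 566 and 535 in the wild type. The high array there was wild type replicate 1, and the log2 change was -0.24 (adjusted p = 0.320), or -0.09 without that array. UTP21 was at 0.12 and UTP6 at -0.019.

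UtpC, which brings casein kinase 2 into the processome, was represented by UTP22, RRP7 and RRP36. UTP22 read 1063, 977 and 1119.6 in gcn4-delta, against 1035, 957 and 781 in the wild type (log2 change 0.20, adjusted p = 0.346). RRP36 read 254, 233 and 280.3 in gcn4-delta, against 386, 306 and 259.9 in the wild type (log2 change -0.30, adjusted p = 0.262). RRP7 lay between them at 0.020. The groups overlapped for all 3 genes.

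The 7 UTP genes outside these complexes had 5 negative and 2 positive changes, and 0 passed, against 11.3% of all genes. UTP20, a very large scaffold protein of HEAT repeats, read 1449.6, 1199 and 1319 in gcn4-delta, against 955, 1237 and 1037 in the wild type. It was the only UTP gene with its lowest value on wild type replicate 1, and its log2 change was 0.30 ± 0.13 (SE, adjusted p = 0.175). UTP23, a small protein that works with the snR30 RNA, read 427, 471 and 572 in gcn4-delta, against 774, 507 and 608 in the wild type. Its wild type replicate 1 was the highest of the 6 arrays, and its log2 change of -0.35 (adjusted p = 0.249) was -0.19 without it. UTP11 read 384, 377 and 438 in gcn4-delta, against 526, 454 and 472 in the wild type, without overlap (log2 change -0.28 ± 0.10, adjusted p = 0.133). UTP7, a scaffold WD-repeat protein, was at -0.29, UTP30 at -0.26, UTP14, the activator of the helicase Dhr1, at -0.11 and UTP25 at 0.0072.

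Box C/D proteins carry the U3 RNA and the guide RNAs of ribose methylation. NOP56, a core subunit, read 1576, 1934 and 1747 in gcn4-delta, against 1711, 1482 and 1348 in the wild type (log2 change 0.21, adjusted p = 0.302). RRP9, the subunit specific to U3, read 624, 589.5 and 666 in gcn4-delta, against 817, 643 and 545 in the wild type (log2 change -0.08, adjusted p = 0.775). NOP1, the methyltransferase fibrillarin, was at 0.11 and NOP58 at -0.027. NOP10, of the box H/ACA particles that guide pseudouridylation, read 2116, 2367 and 2484 in gcn4-delta, against 2732, 1973 and 1629 in the wild type (log2 change 0.17, adjusted p = 0.591). Its wild-type values were wider apart than those of gcn4-delta, with log2 SDs of 0.12 in gcn4-delta and 0.38 in the wild type, so the gcn4-delta range lay inside the wild-type one.

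Among the 10 other small-subunit factors 5 changes were positive and 5 negative, and 0 passed, against 11.3% of all genes. ENP2 read 824, 679.9 and 782 in gcn4-delta, against 622, 744 and 571 in the wild type (log2 change 0.24, adjusted p = 0.261). NOP9, an RNA-binding protein of Pumilio repeats, read 383, 348 and 411 in gcn4-delta, against 589, 463 and 417 in the wild type (log2 change -0.35 ± 0.14, adjusted p = 0.169). The NOP9 groups did not overlap, by a small margin between gcn4-delta replicate 3 and wild type replicate 3. RRP5, which acts in the assembly of both subunits, was at 0.12, the helicase RRP3 at -0.20 and RRP12, known in export, at -0.10. NOP14 and NOC4, partners in one complex, were at -0.026 and 0.069.

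Factors of the large subunit had 16 negative and 4 positive changes among 20 genes, against 55.7% positive among all genes. Their median was -0.15, with 0 calls, against 11.3% of all genes called. Wild type replicate 1 was the highest array for 15 of the 20 (75%), against 31.0% of all genes. Without it 9 of the 20 changes were positive, against 58.5% of all genes. NOP13, a nucleolar RNA-binding protein, had the most negative change of all 64 genes, reading 578, 546 and 720.4 in gcn4-delta, against 1051, 805 and 745 in the wild type. Its groups did not overlap, and its log2 change of -0.49 ± 0.17 (SE, adjusted p = 0.110, limma) was -0.34 without wild type replicate 1. RRP17, the exonuclease that trims the 5′ end of large-subunit RNA, read 274, 275 and 323 in gcn4-delta, against 497, 310.0 and 402 in the wild type (log2 change -0.45, adjusted p = 0.156). It was the only assembly gene called when wild type replicate 2 was left out (-0.63, adjusted p = 0.0453, with 10.1% of all genes called in that fit), and it was at -0.28 without wild type replicate 1. NOP16 was at -0.42, NOP8 at -0.34, RRP1 at -0.32 and NOP7, of the complex with Erb1 and Ytm1, at -0.28.

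At the other end of the large-subunit factors, RLP24 read 1042, 1062 and 1144 in gcn4-delta, against 1095, 798 and 888 in the wild type. Its product holds the place that ribosomal protein L24 later takes, and its log2 change was 0.24 (adjusted p = 0.278). RLP7, which resembles ribosomal protein L7, was at 0.099, NOP53 at 0.14 and the ATPase RIX7 at 0.041. The methyltransferases NOP2 and RRP8 were near 0, at -0.021 and -0.022. NOC2 and NOC3, which bind each other on large-subunit precursors, were at 0.11 and 0.056. NOC2 read 762, 585 and 759 in gcn4-delta, against 713, 687 and 549 in the wild type, and NOC3 read 599, 584 and 683 in gcn4-delta, against 654, 608 and 535 in the wild type. The groups overlapped for both.

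The exosome degrades RNA from the 3′ end and trims ribosomal RNA precursors. Of its 7 RRP genes 6 had negative changes and 0 passed, against 11.3% of all genes called. Their median was -0.23. Wild type replicate 1 was the highest array for 5 of the 7 (71.4%, against 31.0% of all genes), and 3 changes were positive without it. RRP40, a cap subunit, read 733, 654 and 826 in gcn4-delta, against 1042, 809.7 and 855 in the wild type (log2 change -0.29, adjusted p = 0.212). RRP43, of the ring, read 611, 624 and 655 in gcn4-delta, against 703, 728 and 794 in the wild type, without overlap (log2 change -0.23 ± 0.09, adjusted p = 0.133). RRP45, of the same ring, read 732, 731 and 732 in gcn4-delta, against 709, 648 and 581 in the wild type. Its groups did not overlap either (log2 change 0.18, adjusted p = 0.256). Groups did not overlap for 28.6% of the 7 exosome genes, against 35.7% of all genes. RRP6, the nuclear exonuclease, was at -0.28 and RRP4 at -0.24.

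UTP genes and the other assembly genes were next compared by their counts and medians. The median log2 change was -0.0060 over the 18 UTP genes and -0.035 over the 46 others, a difference of 0.029. Positive changes numbered 9 of 18 among UTP genes and 16 of 46 among the others, against 55.7% of all genes. Groups did not overlap for 4 UTP genes (22.2%) and 4 others (8.70%), both below the 35.7% of all genes. The difference between the medians was about as large as the SD between replicate arrays of the same quantity, 0.030. It was 0.11 when wild type replicate 1 was left out and -0.022 when replicate 3 of that strain was. With any other array left out it lay between 0.038 and 0.061. Its size thus moved with single arrays, and its sign turned only without wild type replicate 3.

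The 3 wild-type arrays stood apart from each other on these genes. Wild type replicate 1 had the highest value of the 6 arrays for 40 of the 64 assembly genes (62.5%), against 31.0% of all genes. It lay above the gene's own mean over the 6 arrays for 59 of them (92.2%), against 54.5% of all genes. The lowest value was on gcn4-delta replicate 2 for 23 genes (35.9%, against 21.4% of all genes). It was on wild type replicate 3 for 27 (42.2%, against 20.8% of all genes). The median deviation from the gene's mean, on the log2 scale, was -0.057, -0.13 and 0.11 in gcn4-delta replicates 1, 2 and 3, against 0.24, -0.0061 and -0.13 in wild type replicates 1, 2 and 3. For all genes the same medians lay between -0.028 and 0.059. The median SD of log2 values within a group was 0.14 in gcn4-delta and 0.21 in the wild type for the assembly genes, against 0.11 and 0.15 for all genes in the same order of groups.

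**Figure D2:**
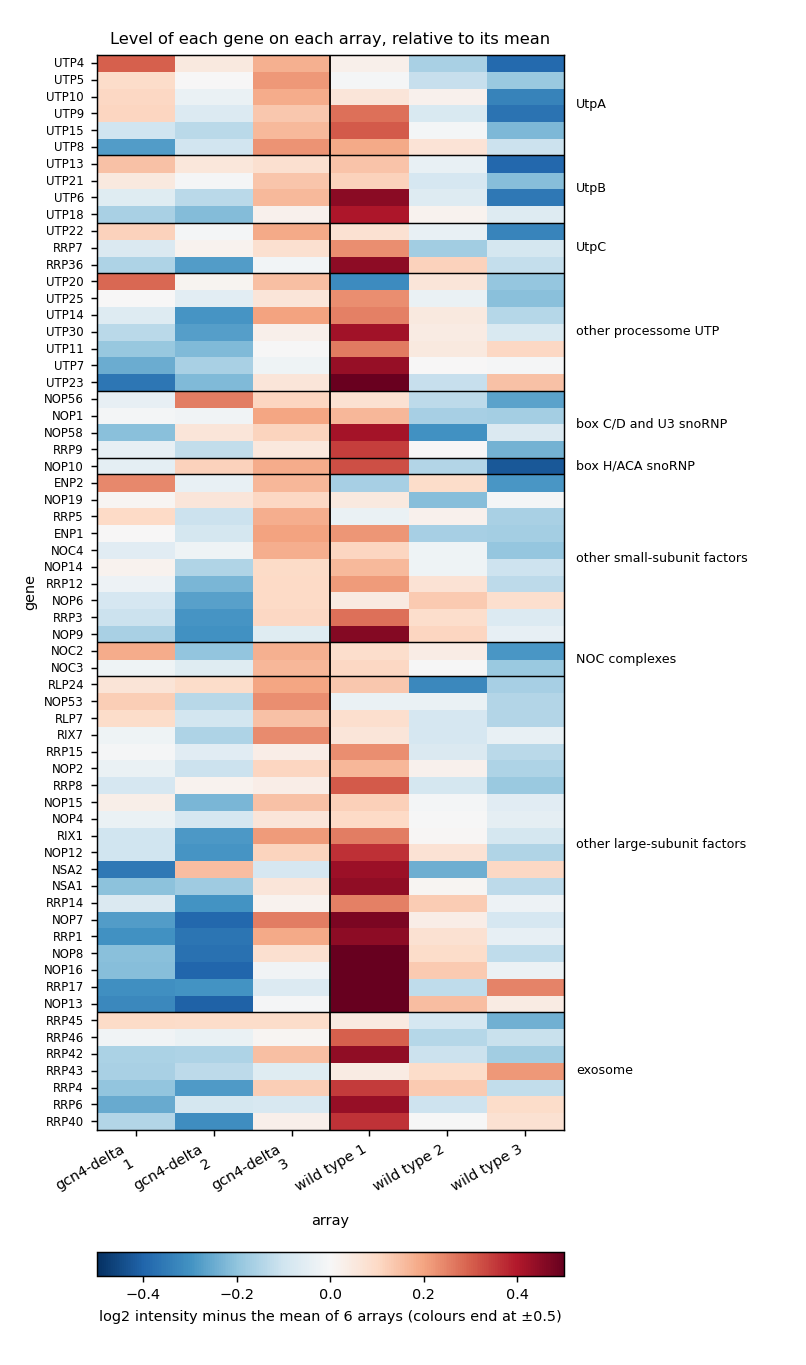
Log2 intensity of each of the 64 assembly genes (rows, grouped by role) on each of the 6 arrays (columns, gcn4-delta left of the line, wild type right), minus that gene's mean. Wild type replicate 1 is red for most rows, being the highest array for 40 genes. The array of gcn4-delta replicate 3 lies above the mean for 54 (84.4%), as it does for 65.8% of all genes.

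**Figure D3:**
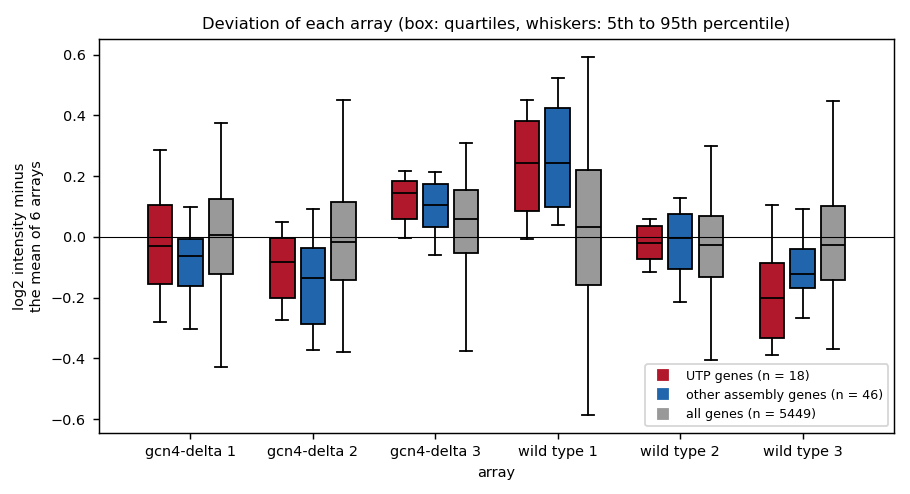
Log2 intensity minus the gene's mean of 6 arrays, as boxes of quartiles with whiskers at the 5th and 95th percentiles, for UTP genes, other assembly genes and all genes on each array. UTP genes and the others move together, with medians of 0.24 for both on wild type replicate 1, and of -0.20 and -0.12 on wild type replicate 3.

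Leaving out wild type replicate 1 turned the median of the assembly genes to 0.080, with 37 of 64 positive in place of 25, and the UTP median to 0.16. Without it 0 assembly genes were called, against 13.1% of all genes, and the smallest adjusted p was 0.0541, that of UTP4 (log2 change 0.45). The median of the large-subunit factors was then -0.023 and that of the exosome genes -0.12. The log2 change took both signs over the 6 omissions of 1 array for 23 of the 64 genes (35.9%), against 25.4% of all genes. With array weights, which gave gcn4-delta replicate 1 a weight of 7.06 and wild type replicate 1 a weight of 0.246, 5 assembly genes were called where 26.5% of all genes were. These were UTP4 and RLP24, higher in gcn4-delta, and NOP13, UTP11 and RRP43, lower. The estimation of those weights stopped before it converged.

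**Figure D4:**
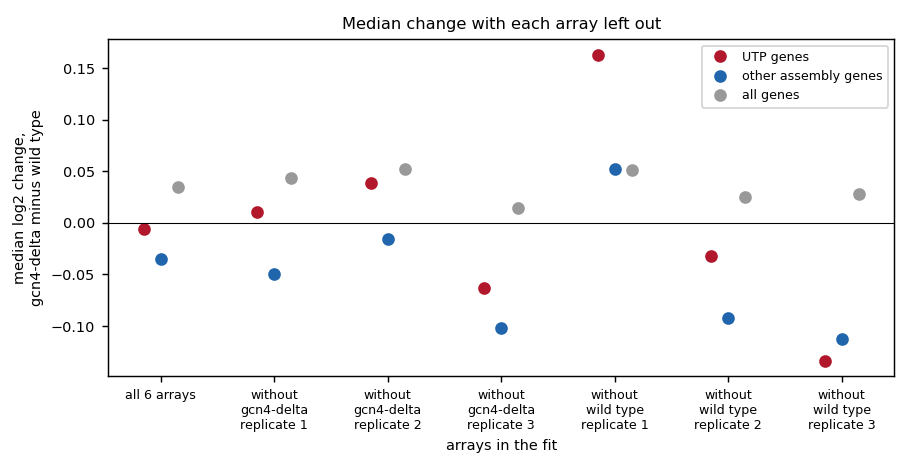
Median log2 change, gcn4-delta minus wild type, of UTP genes, other assembly genes and all genes with all 6 arrays and with each array left out. UTP genes range from -0.13 without wild type replicate 3 to 0.16 without wild type replicate 1, while the median of all genes stays between 0.015 and 0.052.

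Within the UTP genes the change went with the length of the gene, a pattern seen only after the values were known. Coding lengths from the RefSeq table of assembly R64 run from 753 to 7482 bases among them. Spearman's rho between length and log2 change was 0.72 across the 18 UTP genes, 0.061 across the 46 other assembly genes and 0.0058 across all genes. It was 0.32 across the 64 assembly genes together, and 0.23 across 43 small-subunit assembly genes with other names. The short UTP23, UTP11 and UTP30 had negative changes of -0.35, -0.28 and -0.26, and the 3 longest, UTP20, UTP10 and UTP22, had positive ones of 0.30, 0.17 and 0.20. The genes share the same 6 arrays and are not independent replicates. The deviations of wild type replicates 1, 2 and 3 had rhos of -0.80, 0.067 and -0.47 with UTP length. Those of gcn4-delta replicates 1, 2 and 3 had rhos of 0.69, 0.65 and 0.52. Without wild type replicate 1 the rho of the change was 0.65. The part of array quality in it was not tested.

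**Figure D5:**
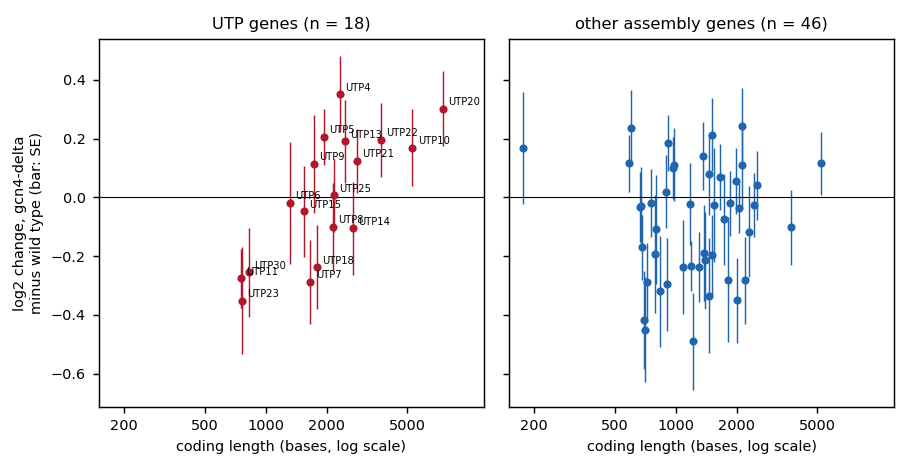
Log2 change, gcn4-delta minus wild type (points, with SE bars), against coding length on a log axis for the 18 UTP genes and the 46 other assembly genes. UTP genes climb from UTP23 at -0.35 to UTP20 at 0.30 (rho 0.72), and the others show no such slope (rho 0.061).

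Assembly genes with other names were few among the calls as well. Of 104 such genes on a list of the rest of the pathway 4 were higher in gcn4-delta (5.34% of all genes) and 1 lower (6% of all genes), with a median log2 change of -0.066. The helicase gene HAS1 read 717, 708 and 847 in gcn4-delta, against 535, 549 and 586 in the wild type, without overlap (log2 change 0.44 ± 0.10, adjusted p = 0.0387). BUD20, a shuttling factor of the large subunit, was at 0.53, PUF6 at 0.35 and GAR1, a partner of NOP10 in box H/ACA particles, at 0.40 (adjusted p = 0.0284, 0.0487 and 0.0241). LRP1, the cofactor of the exosome subunit encoded by RRP6, read 632, 568 and 686 in gcn4-delta, against 920, 861 and 852 in the wild type (log2 change -0.48 ± 0.10, adjusted p = 0.0247). Wild type replicate 1 was the highest array for 61 of these 104 genes (58.7%), against 31.0% of all genes. With 1 array left out, the count of calls was 0 for gcn4-delta replicate 1 and for gcn4-delta replicate 2, 1 for gcn4-delta replicate 3, for wild type replicate 2 and for wild type replicate 3, and 3 for wild type replicate 1.

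Regulators of this gene group, among them SFP1, STB3, DOT6 and TOD6, had 0 of 9 calls, against 11.3% of all genes. Their median was 0.013. A list this short can hold 0 calls at that share. The largest change there was that of CRF1, a corepressor of ribosomal protein genes, at -0.73 (adjusted p = 0.0958). The 7 RPA genes are for subunits of RNA polymerase I, the enzyme that makes the ribosomal RNA precursor. They had 0 calls, again a short list beside 11.3% of all genes, and a median of -0.015. The 128 genes for cytosolic ribosomal proteins, the other component of the ribosome, had a median of 0.10 with 120 positive changes (93.8%), against 55.7% of all genes. Of these 4 passed (3.13%), RPS14B at 0.68 the largest, against 5.34% of all genes called higher. Wild type replicate 3 was the lowest array for 97 of the 128 (75.8%, against 20.8% of all genes). The median of the 128 was 0.047 without that array. With all 6 arrays 25 of the 64 assembly genes had positive changes. Without wild type replicate 1 the counts were 37 of the 64 and 127 of the 128. No test of the difference between these lists was made, and the genes in each share the same arrays.

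UTP9 and RIX1 are next to each other in the R64 gene order, as are RRP15 and NOC4. The first pair had log2 changes of 0.11 and -0.12, and the second of -0.020 and 0.069.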

How the data were processed

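The deposited table holds 1 linear intensity value per array for each probe set. RMA is the method that the submitters' processing notes name, with no version, and nothing says if all arrays went through it together. RMA evens out any change that moves most genes together. Here log2 was taken with no further scaling or pseudocount. No column came from another sample.

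Of 10928 probe sets, 7244 had 1 platform gene symbol, 1 had several and 3683 had none here. Through gene identifiers 5498 matched the R64 RefSeq table, for 5449 genes. Symbols were updated for 12 of them. The brightest probe set stood for each gene. The 95th percentile of the 1746 named probe sets of other genes was the background level.

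The test was that of limma 3.58.1 under R 4.3.3 (lmFit, eBayes, both groups in 1 fit, no covariates), adjusted by Benjamini-Hochberg over the 5498 probe sets. The method was tested on simulated data. Genes named with values were, in each role class, those with the largest positive and negative change, and, of each other list, up to 2 calls per direction or the largest change. Other genes were named after their values were seen. Genes and lists were chosen with earlier results of these data known. Alternatives were a replicate block, omission of each array, 2 further scalings, 2 filters on dim probe sets, other variance models, array weights, a threshold of 0.01 and averaging the probe sets of a gene. The number of arrays limits the precision. Figures were drawn with matplotlib 3.10.9.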

Additional observations from a re-analysis of the deposited data

How the results depend on the processing

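The count of assembly genes called was 5 with array weights, 1 without wild type replicate 2 and 0 in the other fits, so that over omissions of 1 array it ranged from 0 to 1. Their median log2 change moved by less than the SD between replicate arrays (0.16) under each alternative, though its sign turned in 3 fits, without gcn4-delta replicate 2 (0.00019), without wild type replicate 1 (0.080) and with array weights (0.0034). The difference between the UTP median and that of the other assembly genes was 0.079 with array weights and -0.022 to 0.11 over omissions of 1 array. The other 104 assembly genes gave 5 calls with all arrays, 0 with a replicate block, 16 with array weights, 0 at a threshold of 0.01 and 0 to 3 over omissions of 1 array. Genes called in the whole table numbered 618, against 210 with the replicate block, 1443 with array weights, 224 at the threshold of 0.01 and 220 to 713 over omissions. Deviations of same-numbered arrays from their group means were negatively correlated (r = -0.34, -0.38 and -0.22 over probe sets). With 3 arrays per group these values cannot tell whether same-numbered arrays share more than a number. The block left 0 assembly genes called. The causes were not tested. The assembly genes with groups that did not overlap numbered 10 to 24 over omissions, which make overlap rarer by construction, against 38.4 to 47.8% of all genes.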
